A study of Caenorhabditis elegans with 4 samples.

Results

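Chromosome III of Caenorhabditis elegans carried 1109 of the 5338 NHR-28 ChIP-seq peaks in the series-wide list, and all 1109 were kept as members because their lines name that chromosome. Of these, 71 overlapped a peak of both replicate lists by at least 1 bp (6.40%, exact 95% interval 5.03 to 8.01), against 4.50% of all series-wide peaks. These 71 replicate-supported peaks lay along the whole chromosome. With 35 in the centre and 36 in the arms, no tilt towards either was detected. A larger share of peaks was supported on III than on the other autosomes together, but this difference did not pass without chromosome IV, in the more significant 50% of the list or among peaks of similar strength. In the whole list III also had a larger share of strong peaks than the other autosomes together. No difference from the other autosomes in position was detected.

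NHR-28 belongs to the nuclear hormone receptors, transcription factors that bind DNA through zinc fingers and, in many members, respond to small lipophilic ligands. This family is greatly enlarged in nematodes, and most of the worm's additional members are related to the vertebrate receptor HNF4. Worm autosomes have a central domain with little meiotic recombination, rich in conserved and broadly expressed genes. Their flanking arms recombine more, hold more repeats and fast-evolving gene families, and carry more repressive histone methylation. The spread of a factor's peaks between these domains is therefore a coarse description of where in the genome it was found.

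All 4 samples came from hermaphrodites of strain OP317 in larval stage L1. These worms carry the unc119(ed3) mutation and the array wgIs317, which holds nhr-28 fused to the tags TY1 EGFP FLAG together with a copy of unc119. The tagged transgene had been introduced by bombardment into the unc-119(ed3) background and the strain outcrossed, and every sample shared the mutation, the array and its unc119 copy. There were 2 ChIP samples, precipitated with antibodies to GFP, and 2 input samples of total chromatin. Whole animals grown at 20 °C were used, so cell types cannot be told apart, and the stage label also carries an unexplained 26dC. No sample of an untagged strain was among them. The unc-119 gene lies on III and nhr-28 on X, by name in the RefSeq gene table. That table is of another build, WBcel235, and no peak was compared with a gene. Coordinates below are on WS220 and count from 1.

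Each peak carried 1 significance value from the authors' peak caller, a p-value or q-value of at most 0.001, and smaller values mark stronger peaks. The lists give no read counts, so sequencing depth is unknown here and intervals cover counting error only. Replicate 1 held 206 peaks on III and replicate 2 held 217. Of these, 93.2% and 85.3% were also in the series-wide list. Nothing states that the replicates were separate cultures. Among the 1109 members, 118 were in replicate 1 alone (10.6%, against 9.40% of all series-wide peaks) and 115 in replicate 2 alone (10.4%, against 8.13%). In neither list were 805 members (72.6%, against 78.0% of all series-wide peaks). In every test below the unit is the peak, so the tests describe these lists and no condition. The family held 12 tests, adjusted by the Benjamini-Hochberg method, and 1 passed 0.05. For a comparison outside this family, the adjusted p came from putting its p-value in place of the matching one among the 12. Such values do not correct for the number of added comparisons.

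The arms were compared with the centre first. The centre ran from 3.72 to 10.34 Mb, and the chromosome was taken to end at the last peak end, 13781287, which gave the centre 48.0% of the length. It held 49.3% of the supported peaks (exact 95% interval 37.2 to 61.4; exact binomial test, two-sided, p = 0.91, adjusted p = 0.99). In density this was 5.29 supported peaks per Mb in the centre, 4.30 in the left arm with 16 peaks and 5.81 in the right arm with 20. The left arm held 44.4% of the arm peaks on 51.9% of the arm length (27.9 to 61.9; exact binomial test, two-sided, p = 0.41, adjusted p = 0.81). These intervals are wide, and with 71 peaks smaller tilts either way were not detectable.

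**Figure D1:**
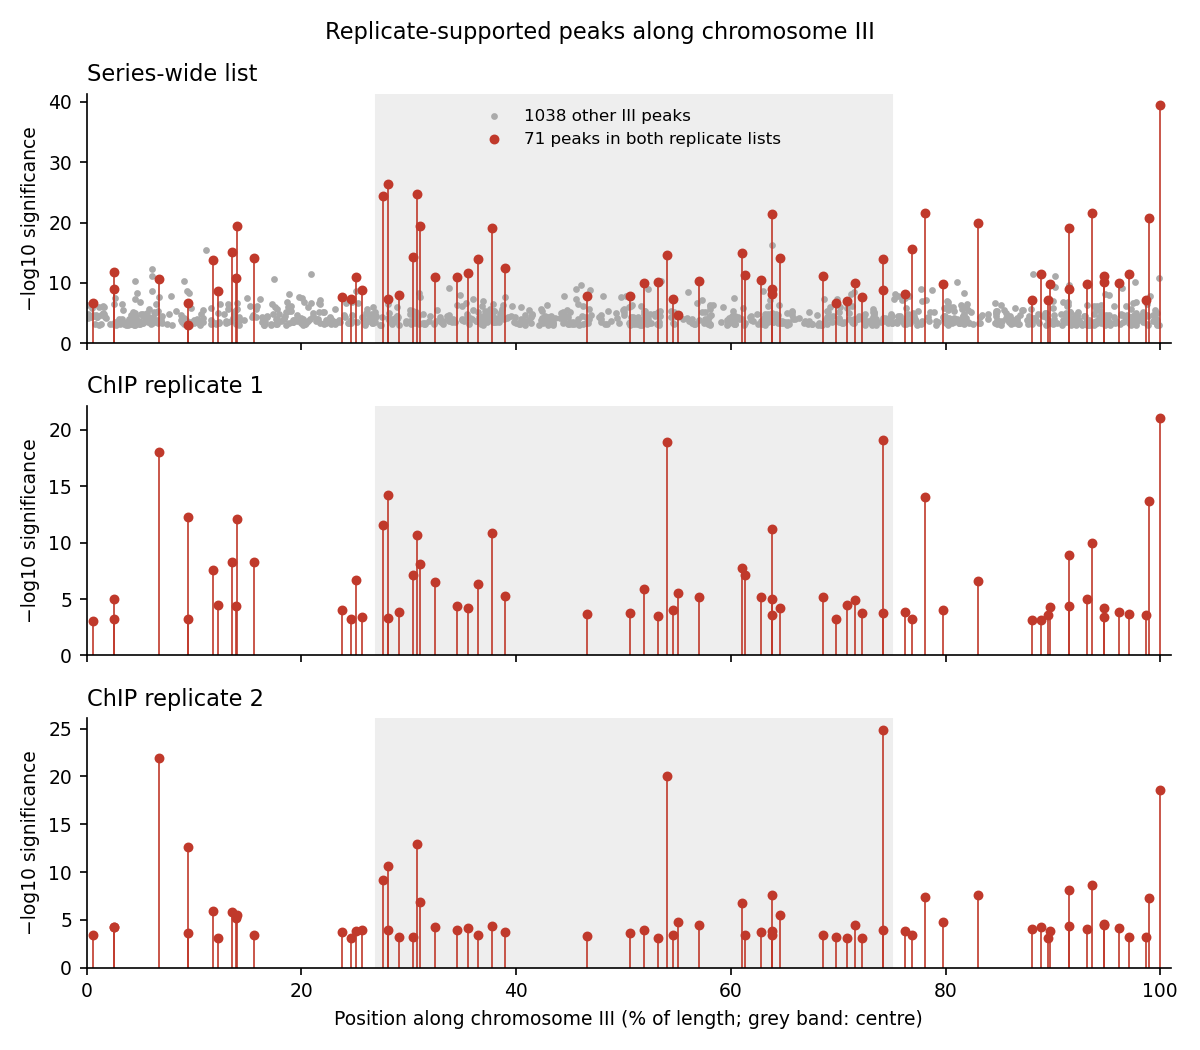
The plot of peak strength along III gives −log10 significance (vertical axes) against position as a percentage of chromosome length (horizontal axis) for the 71 supported peaks (red) in the series-wide list and in each replicate; grey points are the other 1038 III peaks and the grey band is the centre. Red stems stand in both arms and in the centre, and the strongest one of the series-wide list is the last peak of the chromosome.

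No supported peak lay close to either boundary, so the count did not hinge on the exact limits. The nearest to the left boundary were 3540521 to 3540778, with its midpoint 179 kb outside (significance 1.86e-09), and 3800626 to 3801815, 81.2 kb inside (4.51e-25). At the right boundary they were 10224453 to 10225341, 115 kb inside (9.81e-15), and 10506852 to 10507073, 167 kb outside (6.56e-09). With the centre drawn as the central 33.3% of the length, it held 28.2% of the supported peaks, below its share of the length and still short of the threshold (exact binomial test, p = 0.38, adjusted p = 0.70).

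The other autosomes were placed beside III with a centre at the same relative position. Together they held 155 supported peaks among 4044 series-wide peaks, of which 75 (48.4%, 40.3 to 56.5) lay in the centre. The difference from III was 0.91 percentage points, and its 95% interval ran from −12.8 to 14.7 (two-sided Fisher's exact test, p = 1, adjusted p = 1). Single autosomes held 48.6% on I, 52.2% on II, 53.1% on IV and 40.5% on V in the centre, and all their intervals included 48.0%. Their density of supported peaks was lower than on III throughout, from 1.83 per Mb on IV to 3.01 on II, against 5.15 on III. The density of all series-wide peaks was lower there too, from 49.7 per Mb on V to 64.9 on IV, against 80.5 on III.

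The whole list was examined in the same way. Of all 1109 III peaks, 473 lay in the centre (42.7%, 39.7 to 45.6), fewer than its 48.0% of the length, and this comparison, chosen after the data were seen, passed the threshold (exact binomial test, two-sided, p = 0.00034, adjusted p = 0.0021). In density this was 71.5 peaks per Mb in the centre, 83.3 in the left arm and 94.7 in the right arm. The binomial test takes peaks as independently placed. Counts of series-wide III peaks per full 1 Mb bin were uneven, with a variance 2.11 times the mean. The difference in density between arms and centre is part of this ratio, so it does not show by itself that peaks were clumped. If they were not placed independently, the p-value is too small. Replicate 1 had 41.7% of its III peaks in the centre (exact binomial test, adjusted p = 0.32) and replicate 2 had 41.0% (adjusted p = 0.25), neither past the threshold. The other autosomes together showed 42.3% in the series-wide list, a difference from III of less than 1 percentage point (Fisher's exact test, two-sided, p = 0.84). The lower centre share was thus not shown to be particular to III. Of the 56 III peaks under 1e-10, 23 lay in the centre, and the median significance of all III peaks was 7.11e-05 in the centre and 7.13e-05 in the arms.

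**Figure D2:**
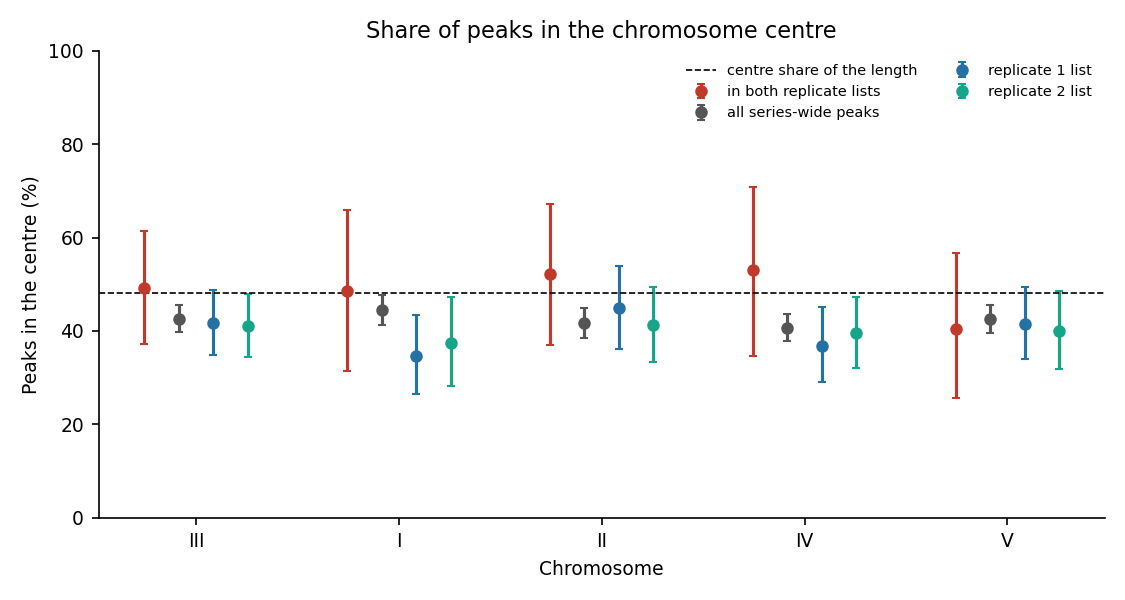
The plot of centre shares gives the percentage of peaks in the chromosome centre (vertical axis) for III and the other autosomes (horizontal axis) in 4 sets of peaks; points are shares, bars exact 95% intervals, and the dashed line is the centre's 48.0% of the length. On III the supported peaks sit at 49.3%, and the series-wide and replicate lists between 41.0% and 42.7%.

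Whether support itself differed along III was asked directly. In the centre 35 of 473 series-wide peaks were supported (7.40%), and in the arms 36 of 636 (5.66%). The difference of 1.74 percentage points had a 95% interval of −1.17 to 4.86 and did not pass (Fisher's exact test, two-sided, p = 0.27, adjusted p = 0.80). The unsupported III peaks had 42.2% in the centre (39.2 to 45.3). Peaks in neither list made up 73.4% of centre peaks, 72.3% of left arm peaks and 71.8% of right arm peaks.

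Support was more frequent on III than on the other autosomes combined. Single chromosomes had 3.59% on I, 5.15% on II, with an interval reaching 6.81%, 2.82% on IV and 4.04% on V, and X had 7.57% of its 185 peaks (4.20 to 12.4), so III had the highest share of the autosomes but not of all chromosomes. The 6.40% supported on III stood against 3.83% on the other autosomes (3.26 to 4.47), a difference of 2.57 percentage points with an interval of 1.13 to 4.26 (two-sided Fisher's exact test, p = 0.00036, adjusted p = 0.0043). Without chromosome IV, which had the lowest support, the other autosomes reached 4.23% and the difference no longer passed (Fisher's exact test, adjusted p = 0.061). Peak strength moved with this difference. When peaks were compared within 10 equal classes of the autosomal list ranked by significance, the common odds ratio was 1.38 (0.951 to 2.00), against 1.72 (1.27 to 2.31) without these classes, and did not pass (exact conditional Cochran-Mantel-Haenszel test, p = 0.079, adjusted p = 0.47).

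Nearly all supported peaks came from the strongest of these classes, with significance values of 1.37e-07 or less. It held 143 III peaks, of which 66 were supported (46.2%, 37.8 to 54.7), and 373 peaks of the other autosomes, of which 133 were (35.7%, 30.8 to 40.8; two-sided Fisher's exact test within this class, unadjusted p = 0.034, outside the family of 12). Within this strongest class III peaks were still the stronger ones, with a median significance of 1.21e-09 against 2.43e-09. Strength was thus not fully matched there. In the next class the shares were 2.50% and 2.53%. From the third class on, 2 III peaks were supported in all classes together. III made up 27.7% of the strongest class and 18.1% of the weakest. The whole autosomal list held 1109 III peaks beside 4044 of the others, a share that lies between these values. By length III made up 16.7% of the autosomes.

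**Figure D3:**
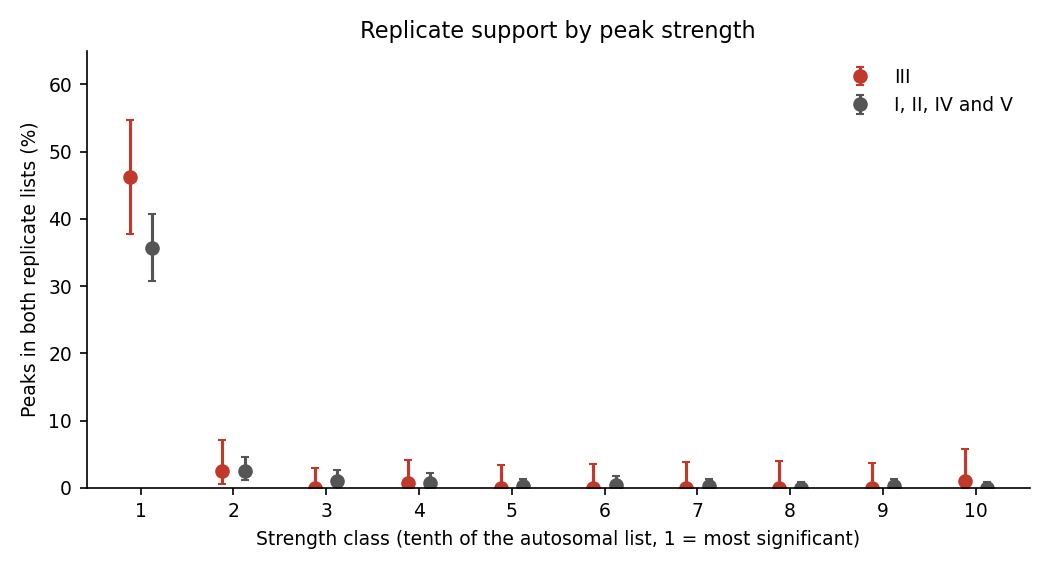
The plot of replicate support by strength gives the percentage of series-wide peaks in both replicate lists (vertical axis) in each of 10 equal classes of the autosomal list by significance (horizontal axis, 1 is the strongest); points are shares for III (red) and for I, II, IV and V together (grey), with exact 95% intervals. The strongest class alone reaches a high share, 46.2% on III and 35.7% on the others.

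In the list as a whole, strong peaks were more frequent on III than on the other autosomes together, though X had a higher share (8.11% of 185 peaks). A significance under 1e-10 was reached by 56 of 1109 III peaks (5.05%), against 113 of 4044 (2.79%) on the other autosomes and 3.45% of all series-wide peaks (Fisher's exact test, two-sided, adjusted p = 0.0023, chosen after the data were seen). III also exceeded the other autosomes in the replicate 1 list, with 13 of 206 peaks (6.31%) against 11 of 578 (1.90%; Fisher's exact test, adjusted p = 0.021). In replicate 2 the counts were 7 of 217 (3.23%) and 8 of 569 (1.41%; Fisher's exact test, adjusted p = 0.44). Among supported peaks the difference was smaller and did not pass: 41 of 71 on III (57.7%) and 83 of 155 elsewhere (53.5%), with an interval of −9.71 to 17.5 percentage points for the difference (Fisher's exact test, adjusted p = 0.85). Median significance in the supported set was 2.41e-11 on III and 1.56e-11 on the other autosomes.

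Along III, strength of the supported peaks did not follow the domains detectably. A significance under 1e-10 was reached by 21 of 35 centre peaks (60.0%) and 20 of 36 arm peaks (55.6%; Fisher's exact test, two-sided, p = 0.81, adjusted p = 0.97). The median was 5.12e-10 in the left arm, 1.04e-11 in the centre and 4.28e-11 in the right arm. Of the 5 centre peaks among the first 10 of III, 4 lay in its left part, between 3800626 and 4282655, with weaker supported peaks among them. The regions 3800626 to 3801815, 3867019 to 3867732, 4237603 to 4238165 and 4281940 to 4282655 had values of 4.51e-25, 4.77e-27, 1.70e-25 and 3.36e-20. In replicate 1 these 4 peaks had 2.85e-12, 6.24e-15, 2.04e-11 and 7.56e-09, and in replicate 2 they had 7.38e-10, 2.52e-11, 1.25e-13 and 1.27e-07. All 10 of the most significant III peaks were supported, 5 of them in the centre and 5 in the right arm. Of the 10 most significant peaks of the other autosomes together, 9 were supported. In the left arm the strongest were 1924979 to 1925519 (4.00e-20), 1859530 to 1859843 (7.42e-16) and 2151447 to 2152018 (8.73e-15).

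The right arm held the strongest III peak and a further 4 of the first 10. The last peak of the chromosome, 13778131 to 13781287, had 3.75e-40 in the series-wide list, 8.40e-22 in replicate 1 and 2.67e-19 in replicate 2, and its matched peaks were 3093 and 2943 bp wide. It ended at the position used as the chromosome's length. Within the right arm, the next in strength was 10758684 to 10759341, with 2.35e-22 in the series-wide list, 9.23e-15 in replicate 1 and 3.66e-08 in replicate 2. The region 12904842 to 12905352 followed with 2.90e-22, 1.12e-10 and 2.16e-09 in the same order. The region 13643415 to 13643791 had 1.88e-21, 1.99e-14 and 5.01e-08. The region 11444179 to 11445174 had 1.01e-20 in the series-wide list but a stronger value in replicate 2 (2.60e-08) than in replicate 1 (2.67e-07). At the opposite end, the first supported peak, 87213 to 87422, was weak in every list (2.33e-07, 0.00086 and 0.00040).

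Supported III peaks were wider than other III peaks. Their median width was 509 bp (quartiles 351.5 and 644.5, range 210 to 3157), against 239.5 bp for peaks in replicate 1 alone, 181 bp in replicate 2 alone and 123 bp in neither list. A supported peak has to be called in both replicates as well, and a wide peak meets the 1 bp overlap more readily than a narrow one. Width also went with strength (Spearman's rho 0.57 across the 71 peaks, which share their libraries), so the width difference is a description. Widths above 500 bp occurred in 36 of 71 supported III peaks (50.7%) and in 70 of 155 on the other autosomes (45.2%), against 7.57% of all series-wide peaks. The difference of 5.54 percentage points had an interval of −8.27 to 19.2 (two-sided Fisher's exact test, p = 0.47, adjusted p = 0.81). Its sign turned with the limit: above 300 bp lay 84.5% on III and 92.3% elsewhere, and above 1000 bp 5.63% and 10.3%.

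Within III the centre had 19 of 35 supported peaks above 500 bp (54.3%) and the arms 17 of 36 (47.2%; Fisher's exact test, two-sided, p = 0.64, adjusted p = 0.85). The widest after the chromosome's last peak were 3800626 to 3801815 with 1190 bp and 7446777 to 7447880 with 1104 bp, both in the centre. The narrowest were 87213 to 87422, 4004226 to 4004444 and 10506852 to 10507073, at 210, 219 and 222 bp. These narrow peaks lay 1 in each domain. Together the 71 peaks covered 39841 bp of the 215042 bp covered by all III peaks.

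Spacing was then described, without a test. Neighbouring supported peaks on III were a median of 139531 bp apart, with gaps from 1015 to 1127132 bp. On the other autosomes the median gap ran from 224217 bp on II to 401959 bp on V. Relative to its own mean gap, the median on III was 0.715, and on the other autosomes it lay between 0.601 and 0.804, so III stood within their range once its higher density was taken into account. Counts per full 1 Mb bin ran from 1 to 8 on III, with a variance 1.23 times the mean, and the same ratio ran from 0.905 on II to 1.73 on IV.

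**Figure D4:**
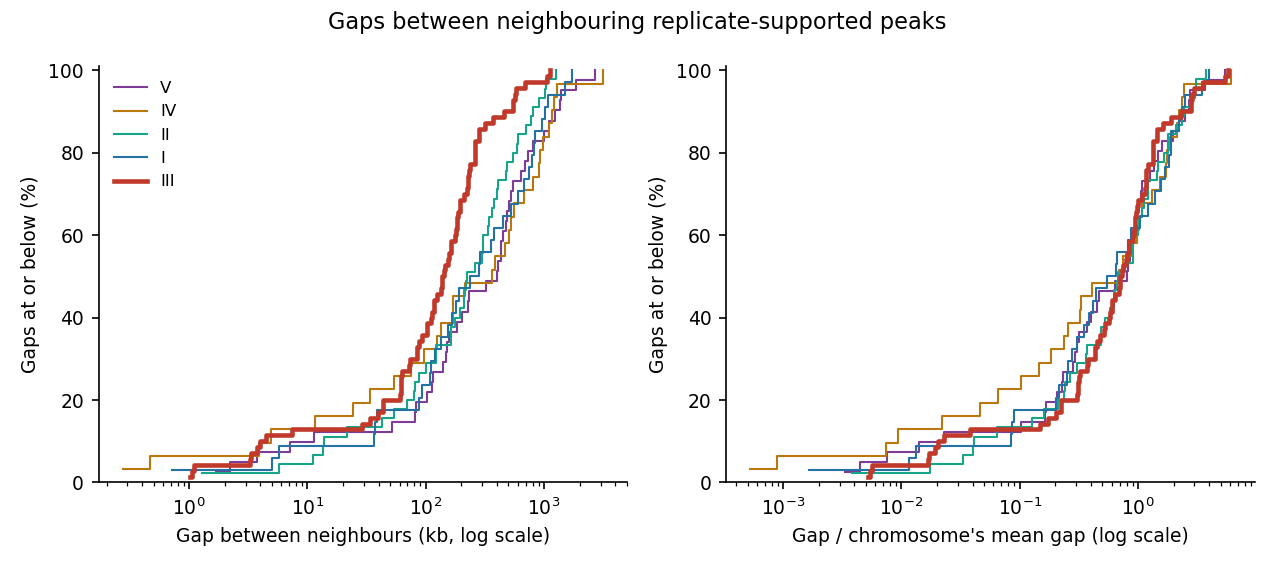
The plot of gaps gives the cumulative percentage of gaps between neighbouring supported peaks (vertical axes) against gap length in kb (left) and against the gap divided by the chromosome's mean gap (right), both on log scales, with III as the thick line. Gaps on III are shorter in kb (median 139.5 kb), and after scaling the line runs among those of the other autosomes.

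Some supported peaks lay within a few kb of each other. Of 70 gaps, 9 were 10 kb or less, and the next longer one was 29035 bp. They joined 17 of the 71 peaks (23.9%, 14.6 to 35.5) into 7 pairs and 1 run of 3 peaks. On the other autosomes 8.70% (II) to 21.9% (IV) of supported peaks lay in such runs. These shares are not scaled for the higher density of supported peaks on III, and their difference was not tested. The pairs on III lay in the left arm at 349520 to 355307, 1299607 to 1301906 and 1920986 to 1925519. In the centre they lay at 3862952 to 3867732 and 10216724 to 10225341, and in the right arm at 12608522 to 12612737 and 13060930 to 13062765. No replicate peak bridged the members of a pair, since none overlapped more than 1 supported peak.

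The run of 3 stood at 8795622 to 8802577 and spanned 6956 bp in the centre. Its members were 8795622 to 8795958, 8797059 to 8797664 and 8801638 to 8802577, with significance values of 7.13e-09, 9.84e-10 and 3.25e-22. In replicate 1 they had 1.04e-05, 0.00024 and 5.62e-12, and in replicate 2 0.00039, 0.00015 and 2.39e-08, so the third was the strongest in every list. Another series-wide peak, 8799814 to 8801329, lay between the second and the third. It had a significance of 6.41e-17 and was 1516 bp wide, overlapped a replicate 2 peak (2.62e-05) and had its nearest replicate 1 peak 0.313 kb away. It was the strongest III peak found in 1 replicate list alone.

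Long stretches without a supported peak were not empty of peaks. The longest, 1.13 Mb from 2152019 to 3279150 in the left arm, held 90 series-wide peaks (79.8 per Mb, against 80.5 over all of III), of which 8 were in replicate 1 alone and 9 in replicate 2 alone. Its strongest member, 2880969 to 2881650, reached 3.02e-12 and was in replicate 1 alone. The next, 1.05 Mb from 5368613 to 6420806 in the centre, held 74 peaks (70.3 per Mb), 6 and 5 of them in 1 list alone. The stretch from 355308 to 931226 near the left end had no supported peak either. It held 69 series-wide peaks, or 119.8 per Mb, 10 in replicate 1 alone and 11 in replicate 2 alone. Of the 7 stretches over 500 kb, it alone was denser in peaks than III as a whole. Those not named above had 68.1, 64.0, 50.8 and 49.0 per Mb. Both replicate lists had peaks in all of these stretches, but none of them met in 1 series-wide peak.

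Unsupported peaks near supported ones were counted next, and on III they were hardly denser there than elsewhere along it. Within 10 kb of a supported III peak there were 99 unsupported series-wide peaks in 1.26 Mb, a density of 78.6 per Mb; the remainder of III had 75.2, a ratio of 1.05. The same ratio was 1.43 on I, 2.05 on II, 1.58 on IV, 1.41 on V and 1.63 over these 4 together. With 50 kb flanks it was 1.13 on III and 1.23 on the other autosomes. These ratios describe the lists, and their difference was not tested. Near supported peaks III had 78.6 unsupported peaks per Mb, against 90.0 on these 4 together. That lay within the range of the single autosomes, from 66.6 on V to 107.5 on II. Away from supported peaks III had 75.2, against 55.2 on these 4 together. That was above each of them, from 47.1 on V to 62.0 on IV.

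**Figure D5:**
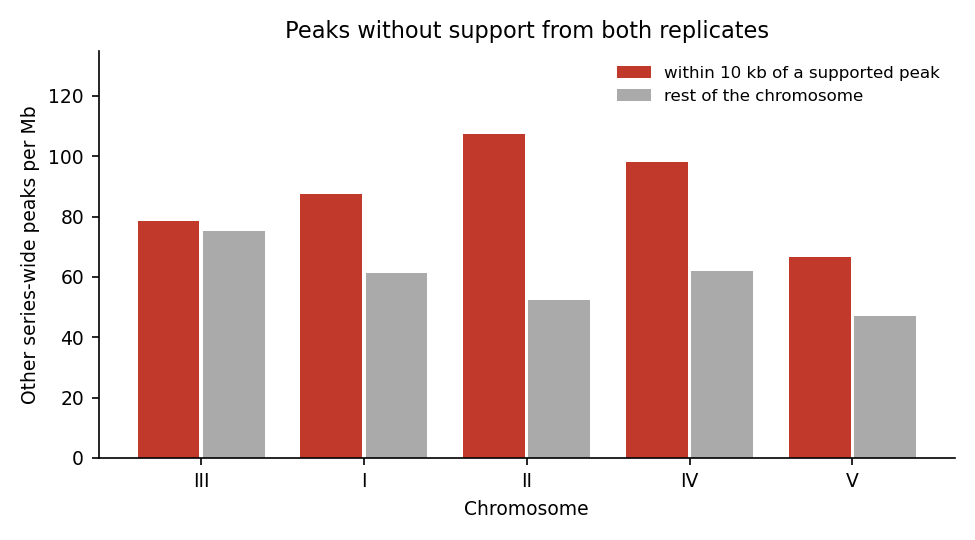
The plot of peak density near supported peaks gives the number of series-wide peaks without support from both replicates per Mb (vertical axis) for each autosome (horizontal axis), within 10 kb of a supported peak (red bars) and on the rest of the chromosome (grey bars). On III the bars stand at 78.6 and 75.2 per Mb, and on II at 107.5 and 52.5.

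The lists were then compared at the supported III peaks. The median significance was 1.24e-05 in replicate 1 and 8.26e-05 in replicate 2, and replicate 1 had the smaller value at 48 of 71 peaks. Across the 71 peaks, which share their libraries and are not independent, Spearman's rho between the replicates was 0.66, and Pearson's r of their −log10 values was 0.88. Without the chromosome's last peak these were 0.64 and 0.86. On the other autosomes the values were 0.58 and 0.71 over 155 peaks. The centres of the matched replicate peaks lay a median of 41 bp apart on III and 49 bp elsewhere. At 5 of the 71 peaks the replicate peaks touched the same series-wide peak without overlapping each other, and 1 of these, 13380492 to 13381106, rested on a replicate 2 peak only 2 bp wide.

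Taken list by list, 66 of 206 replicate 1 peaks on III had a partner in replicate 2 (32.0%, against 29.0% of the whole list), and 66 of 217 in the other direction (30.4%, against 29.3%). The other autosomes gave 26.5% and 27.1%. The differences of 5.57 points (−1.50 to 13.1) and 3.35 points (−3.53 to 10.7) did not pass (Fisher's exact tests, two-sided, adjusted p = 0.59 and adjusted p = 0.81). In the centre lay 34 of these 66 partnered peaks in each list (51.5%, 38.9 to 64.0).

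Chosen after their values were seen, 6 supported III peaks went against the usual order of the lists. At the other 65 the series-wide value was smaller than both replicate values, whereas at these 6 it was larger than both. The region 931227 to 931869 had 2.41e-11 in the series-wide list but 8.62e-19 in replicate 1 and 1.13e-22 in replicate 2. The region 10224453 to 10225341 had 9.81e-15 against 8.08e-20 and 1.44e-25. The region 7446777 to 7447880 had 2.09e-15 against 1.16e-19 and 8.06e-21, and 1299607 to 1300477 had 2.41e-07 against 4.95e-13 and 2.52e-13. The remaining members, 1301537 to 1301906 and 7594547 to 7595101, had 0.00085 and 2.33e-05 in the series-wide list.

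Their edges also recurred more exactly than those of other peaks. The larger of the start and end shifts between the replicate lists had a median of 3.5 bp at these 6 peaks (highest 24 bp) and of 100 bp at the other 65 (7 to 471 bp). On the other autosomes 8 of 155 supported peaks had the same order of values, with a median shift of 2.5 bp (highest 159 bp). The other 147 had a median of 108 bp (0 to 3658 bp). Both edges lay within 10 bp at 14 peaks there, 7 with this order and 7 without it, and at 7 peaks on III, 5 with it and 2 without. The share of peaks with this order of values was 8.45% on III and 5.16% elsewhere, and this difference was not tested. None of the 6 was in the strongest 10 of III, and 3 of them had the smallest values on III in the replicate 2 list.

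Some unsupported III peaks were strong as well. After the peak 8799814 to 8801329 described above, the strongest in 1 list alone were 1533256 to 1533814 (3.91e-16) and 833722 to 834138 (5.41e-13), both in the left arm and both in replicate 1. Their nearest replicate 2 peaks were 67.2 and 18.3 kb away. The strongest in neither list were 622550 to 623145 (4.41e-11), 12607577 to 12608284 (2.44e-10) and 6464293 to 6464864 (1.73e-09). Peaks in neither list had a median significance of 0.00016 and reached 1e-10 once among 805.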

How the data were processed

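NHR-28 ChIP-seq peak lists of 2 ChIP samples and of the whole series were analysed; the input samples are not analysed here. Groups come from the sample titles. The authors deposited GFF lists of peaks called with PeakSeq on WormBase WS220, per the file headers and source field, with a p-value or q-value per peak; which of these it is, the aligner, threshold, control and any pooling have no statement in the labels or headers. No genome of this build was used, so peaks carry no genes or sequences.

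Support meant overlap of at least 1 bp with both replicate lists. Chromosome length was the largest peak end over all lists. Exact binomial, Fisher's exact and exact Cochran-Mantel-Haenszel tests (SciPy 1.17.1, R 4.3.3) were two-sided and adjusted by Benjamini-Hochberg. Overlap, the binomial test, the Cochran-Mantel-Haenszel test and the joining of runs were tried on simulated data, and the other procedures were not. Shares have exact (Clopper-Pearson) 95% intervals and their differences Newcombe intervals. Named peaks are the 10 strongest supported, the 3 strongest of each domain, the 3 widest and narrowest, the first and last, the members of the largest run, and the 3 strongest in 1 list or in neither. Boundary, stretch and list-order peaks were named later. Members and comparisons were chosen with earlier results of these data known. Alternatives covered overlap, peak strength and width, boundaries, limits, and each replicate left out.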

Additional observations from a re-analysis of the deposited data

How the results depend on the processing

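Of 145 alternative values, 66 added with the data in view, 114 came from a test and kept their direction and their side of the threshold. A further 10 describe runs of neighbouring peaks, with no test, and 9 of these stayed within the interval of the reported share. The centre share of supported III peaks (49.3%) went below the centre's share of the length in the whole series-wide list (42.7%, the sole such value past the threshold), in the replicate 1 list (41.7%), in the replicate 2 list (41.0%), with either replicate left out (42.9% to 43.0%) and in the central 33.3% of the length (28.2%). That last boundary also turned the difference from the other autosomes (−3.44 percentage points) and the centre against arm difference in support (−0.54 points). The III excess in support, 2.57 points, did not pass in the more significant 50% of the list (3.46 points) or without IV (2.17 points); without 1 replicate it was 3.89 to 5.10 points. The difference in wide peaks turned at 300 bp (−7.75 points), at 1000 bp (−4.69), in the replicate 2 list (−2.71) and without replicate 1 (−0.90). Without replicate 2 it kept its sign (3.90). The difference in strong peaks between III and the other autosomes turned under 50% reciprocal overlap (−4.44 points) and passed in the whole list (2.26) and in replicate 1 (4.41). That between centre and arms turned under 50% reciprocal overlap (−11.5), at 1e-06 (−0.079), at 1e-15 (−7.86) and in the whole list (−0.33). Runs with gaps of up to 50 kb held 36.6% of supported III peaks instead of 23.9%. The causes were not tested. No paired analysis was possible because the peak lists cover the ChIP samples alone. The lists give no depth, and absence from 1 list is no evidence of an unbound region.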
